A study of Bos taurus with 32 samples.

Results

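Cell cycle and mitosis genes were taken from the array as every probe whose gene name begins as a cyclin, a CDC, CDK, CDKN, MCM, BUB, aurora, polo-like, KIF or CENP gene, together with PCNA, TOP2A, UBE2C, PTTG1 and the probe for FAM83D. The files name that last probe by an EST accession alone, and it is called FAM83D after the study, an identity that was not checked here. The rule found 32 of 15208 probes, 1 for each gene. No probe carried the name PCNA, TOP2A, UBE2C or PTTG1 in the array's own annotation. Of the 32, 23 read genes that run or accompany cell division. The other 9 were caught by their names alone or are kinesins that carry cargo: CDC10 (a septin), CDC37 (a chaperone partner), CDC42SE1 (an effector of CDC42), CDK11, CDK5 and its activator CDK5R1 (a neuronal pair), bubp43 (described in the files as a putative ubiquitin-specific protease), KIF3C and KIF5A.

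A cell divides by switching cyclin-dependent kinases on and off in order. D cyclins with CDK4 open the cycle, cyclin E and cyclin A with CDK2 carry it through DNA replication, and cyclins A and B with CDK1 drive mitosis, after which the anaphase-promoting complex destroys the cyclins. Replication origins are loaded with the MCM helicase and fired with CDC45, while centromere proteins, aurora kinase B and polo-like kinase 1 govern the attachment and separation of chromosomes. In the endometrium, the lining of the uterus, division of epithelial and stromal cells follows the ovarian steroids through the estrous cycle.

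Endometrium of Japanese Black cows was measured on 32 single-colour arrays at Day 15 of the cycle. There were 4 repeat breeder (RB) cows, which had not conceived after repeated insemination, and 4 non-RB cows, which had conceived, were then given prostaglandin F2α to end the pregnancy and had returned to normal cycles. In each cow the caruncular (CAR) areas, which lack glands and form the placental attachment sites, and the glandular intercaruncular (ICAR) areas between them were sampled in both uterine horns, the one on the side of the corpus luteum (ipsilateral) and the opposite one (contralateral), so that each of 8 groups holds 4 arrays. The statuses differ also in this history of pregnancy. Tissue was whole endometrium, so fewer cells of a type and less RNA per cell cannot be told apart.

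All levels are log2 signals scaled to each array's 75th percentile, and each describes its own probe, since levels of different probes cannot be compared. That percentile ran from 1165 to 4857 intensity units, and between 26 and 30 of the 32 genes were well above background on an array. Slide 1, with 2 non-RB arrays, stood apart by up to 351 outlier spots on an array, and RB replicates 2 and 3 lay on slide 2, which holds RB arrays alone. One pair of arrays went against its labels. Over 12919 probes, the CAR minus ICAR difference of arrays of the same status, horn and number correlated with the mean of the other 15 pairs at over 0.1 in 13 of 16 pairs. It did so at -0.84 for RB replicate 3 of the contralateral horn, and at -0.15 and -0.03 for the ipsilateral and contralateral pairs of non-RB replicate 2. In the RB replicate 3 pair the ciliated cell gene RSPH1 was 3.14 higher and the secretory gene BPIFB1 4.14 higher in the array labelled CAR, whereas over all arrays both were lower in CAR. The labels were kept. For the cyclins and CDKN3, differences between CAR and ICAR are given with and without these 2 arrays. Contralateral differences between RB and non-RB cows are also given without RB replicate 3 for the genes described at length. These are FAM83D, PLK1, AURKB, CCNB1, CCNB2, CCNE2, CCND3, MCM6 and CDC45L, with CDKN3 in CAR and MCM5 in ICAR. For the other genes named they are not.

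The genes on which the results turn were read by probes of 60 bases, of which a stretch of 30 is shown to identify each, bases 28 to 57 for CCNB1 and bases 1 to 30 for the others. Capitals mark AATAAA, the common polyadenylation signal near the end of transcripts.
FAM83D: aaactcaaaactctgtttcttaggtgtgtc
PLK1: acgtggctgttgaattcgggactgtgcttg
CCNB1: atactacctgcaAATAAAactccatgtgcc
CCNB2: ggaattcctgagtttgtatatagtcctctg
CDKN3: acctgagaggatctggagcgatacagacca
The 6 letters stood in the whole probes of 3 of the 32 genes (CCNB1, MCM5 and MCM7), or 9.38%, against 11.3% of 15011 distinct probe sequences. Their reverse complement, TTTATT, stood in 1 (CDK5), against 4.18% of all. The files give no genome position for these probes, and none was assigned.

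Most of the machinery was measurable on every array. Of the 32 genes, 25 were well above background on all 32 arrays, among them all 4 S and M cyclins, CDC2 (CDK1), CDK2, CDK4, MCM5, MCM6, MCM7, AURKB, PLK1 and FAM83D. CENPE, the kinesin that moves chromosomes to the spindle equator, was well above background on 0 arrays. CENP-N, a centromere reader, reached it on 2 arrays and MCM3, a subunit of the helicase, on 7, so these 3 have mostly bounds. CENP-A, the centromeric histone, and CDC45L, the helicase activator, reached it on 25 arrays each and CDKN3, a phosphatase that acts on CDK1 and CDK2, on 24. CCNB1 (cyclin B1) varied most within groups. Its SD of 1.24 was larger than that of 96.9% of the probes tested, while the median SD was 0.45 over the 29 genes that passed the filter and 0.50 over all probes. CDC26, a subunit of the anaphase-promoting complex, with an SD of 0.24, and CDC37, with 0.27, varied least.

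RB and non-RB cows were compared within each compartment and horn. The adjusted p of limma, over 12889 to 13135 probes, was under 0.05 for 0 of the 30 cell cycle genes tested in CAR of the ipsilateral horn, 0 of 29 in ICAR of that horn, 0 of 31 in contralateral CAR and 0 of 30 in contralateral ICAR, and 0% of all probes passed in each. At an unadjusted p under 0.05 there were 1, 3, 1 and 0 genes, against 3.41%, 3.69%, 1.74% and 1.6% of all probes. By direction these were 1 gene lower in RB cows in ipsilateral CAR (1.96% of probes lower, 1.44% higher), 1 higher and 2 lower in ipsilateral ICAR (2.23% and 1.45%), 1 lower in contralateral CAR (0.533% lower, 1.2% higher) and 0 in contralateral ICAR (0.701% higher, 0.901% lower). FAM83D, which the study had listed among the most changed genes of ipsilateral ICAR, was the gene counted in both CAR comparisons and 1 of the 3 in ipsilateral ICAR. It was picked from the ipsilateral ICAR arrays, so its counts in that horn are descriptions. Apart from it no gene was counted in either CAR comparison, and PLK1 and CCNB1 were counted in ipsilateral ICAR. The median difference of the genes was 0.05, 0.07, -0.02 and -0.02 in the same order, beside 0.02, -0.03, 0.00 and 0.02 over all probes.

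**Figure D1:**
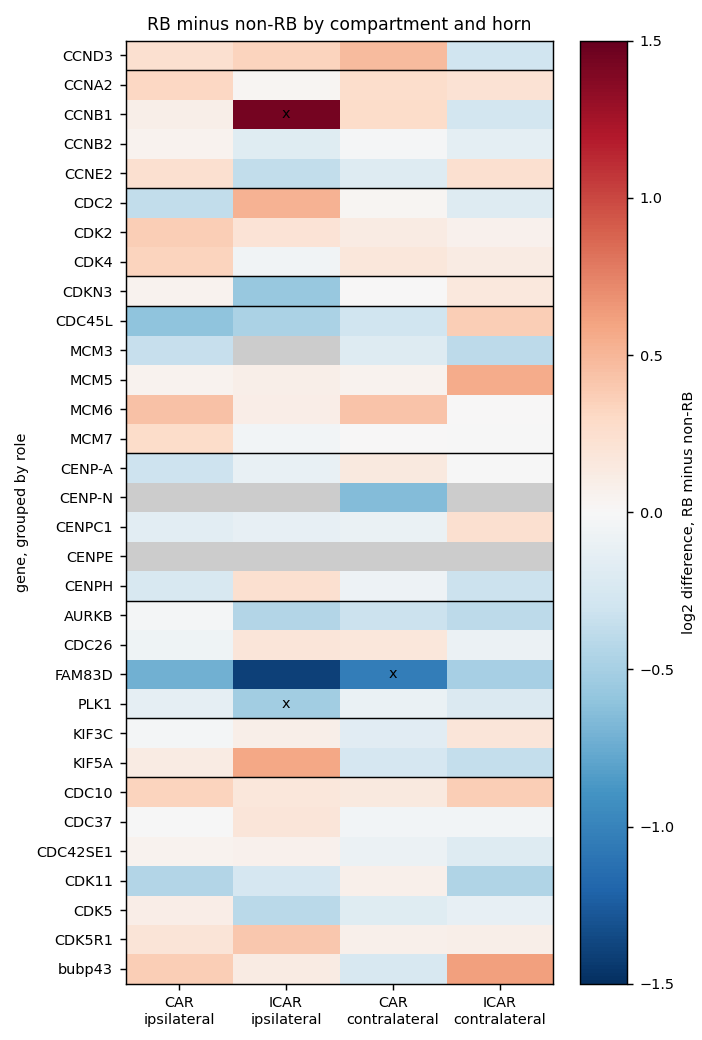
Difference of the mean log2 signal, RB minus non-RB (colour, from -1.5 to 1.5), for 32 genes grouped by role (rows) in each compartment and horn (columns). Grey marks genes that did not pass the background filter, and x an unadjusted limma p under 0.05, left out for FAM83D in the ipsilateral horn, since the study chose it from ICAR there. FAM83D is lower in RB cows in all 4 columns, and the other rows are mostly pale.

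FAM83D recruits casein kinase 1 to the mitotic spindle. In ICAR of the ipsilateral horn its signals were -3.12, -4.10, -3.97 and -3.76 in the RB cows and -2.54, -2.42, -2.33 and -2.07 in the non-RB cows. All RB arrays lay below all non-RB arrays, with means of -3.74 ± 0.44 and -2.34 ± 0.20 (SD, n = 4 each), a difference of -1.40. In ipsilateral CAR the signals were -3.10, -4.03, -3.37 and -2.70 in RB and -2.81, -2.58, -2.33 and -2.60 in non-RB cows, and the groups overlapped, with a difference of -0.72. The gene was picked from the ipsilateral ICAR arrays, and the CAR arrays are of the same horns, so both differences are given as descriptions. The study reported that qPCR did not bear out its array result for FAM83D in ipsilateral ICAR. Epithelial markers were lower in RB cows in ipsilateral CAR for 7 of 7 genes with 0 called, and their mean signal, from -0.34 to 0.15 in RB and from 0.37 to 1.01 in non-RB cows, did not overlap. In ipsilateral ICAR 4 of 7 were lower and the ranges, from -0.19 to 0.90 and from 0.22 to 1.13, overlapped. In the contralateral horn 6 of 7 were lower in each compartment, with 0 called. All 7 were well above background on every array, and their part in the FAM83D differences was not tested.

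The contralateral arrays were not used to pick FAM83D, but they are of the same cows, so they are not independent of that choice. In contralateral CAR the FAM83D signals were -2.97, -2.93, -4.15 and -2.55 in RB and -2.75, -1.85, -1.75 and -2.11 in non-RB cows. Non-RB replicate 1 fell among the RB arrays and the other non-RB arrays lay above all of them. The difference was -1.04 (95% confidence interval -1.90 to -0.17; two-sided exact permutation test, p = 0.0571; limma, p = 0.0238 and adjusted p = 0.9998). It was -0.70 without RB replicate 3 and -0.51 with the slide as a block. In contralateral ICAR the signals were -1.80, -4.11, -3.29 and -3.11 in RB and -1.69, -3.66, -2.53 and -2.46 in non-RB cows. These overlapped widely, and the difference of -0.49 (interval -1.73 to 0.74; exact permutation test, p = 0.457; limma, p = 0.388 and adjusted p = 0.9998) became 0.64 with the slide as a block and 0.44 with the scan session. It was -0.42 without RB replicate 3, -0.15 without RB replicate 2, -0.20 without non-RB replicate 1, and -0.85 and -0.92 without non-RB replicate 2 and RB replicate 1.

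Few slides hold both statuses of the same compartment and horn. On slide 6, with 1 array of each status, FAM83D differed by -1.43 in ipsilateral ICAR, -0.80 in contralateral CAR and -0.59 in contralateral ICAR. On slide 8, also with 1 array of each, it differed by -0.69, -0.22 and 1.86. RB was lower on both slides in 2 of the 3 comparisons. With the compartments and horns of a slide pooled, RB minus non-RB was -0.83 on slide 6 and 0.31 on slide 8. Averaged over the 4 arrays of each replicate number, FAM83D was -2.75, -3.79, -3.69 and -3.03 in RB and -2.45, -2.63, -2.24 and -2.31 in non-RB cows. These means include the ipsilateral ICAR arrays from which the gene was picked, so they are descriptions. The exchange of a CAR and an ICAR array would leave them unaltered.

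**Figure D2:**
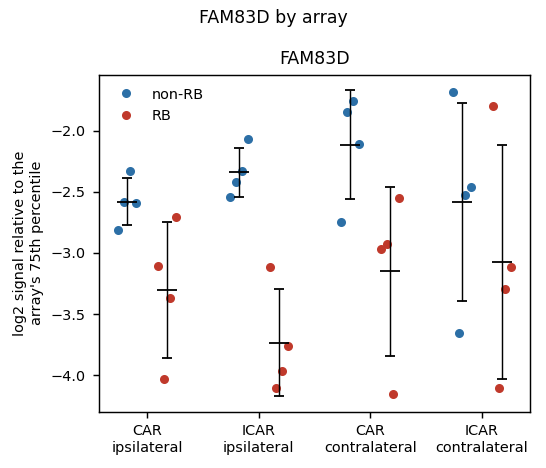
FAM83D signal on each array (points; vertical axis, log2 scaled to each array's 75th percentile) in non-RB (blue) and RB (red) cows by compartment and horn. Bars are means and SD of 4 arrays. In ipsilateral ICAR the RB arrays, from -4.10 to -3.12, lie below the non-RB arrays, from -2.54 to -2.07, and elsewhere the groups overlap.

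PLK1 and CCNB1 were the other 2 genes with an unadjusted limma p under 0.05 in ipsilateral ICAR. PLK1 drives entry into mitosis and spindle assembly. In ipsilateral ICAR its signals were 0.08, 0.01, -0.01 and -0.01 in RB and 0.17, 0.89, 0.49 and 0.58 in non-RB cows. The groups did not overlap, and the RB arrays were closely alike, with means of 0.01 ± 0.04 and 0.53 ± 0.30 (SD, n = 4 each). The difference of -0.52 did not pass the adjustment (exact permutation test, p = 0.0286, the smallest that 4 against 4 allows; limma, p = 0.0337 and adjusted p = 0.863). It was -0.50 on slide 6 and -0.82 on slide 8, with 1 array of each status.

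Groups that did not overlap were found for 2 of 29 genes in ipsilateral ICAR (FAM83D and PLK1), against 2.23% of all probes there. FAM83D was picked from these arrays, so PLK1 alone can be set against that share. In ipsilateral CAR and in contralateral CAR there were 0 such genes, against 1.97% and 1.37% of probes. In contralateral ICAR there was 1 of 30, MCM5, against 1.48%. PLK1 overlapped in the other compartments, where RB minus non-RB was -0.13 in ipsilateral CAR, -0.10 in contralateral CAR and -0.22 in contralateral ICAR (-0.09 and -0.35 without RB replicate 3).

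AURKB, the kinase that corrects faulty chromosome attachment, was -3.53, -4.18, -4.11 and -4.10 in RB and -3.47, -3.34, -3.34 and -4.02 in non-RB cows in ipsilateral ICAR. Non-RB replicate 4 lay among the RB arrays. The difference was -0.44 (exact permutation test, p = 0.0571; limma, p = 0.110 and adjusted p = 0.863). It was -0.03 in ipsilateral CAR, -0.33 in contralateral CAR and -0.39 in contralateral ICAR (-0.23 and -0.53 without RB replicate 3), and in the last it was 0.02 without non-RB replicate 1. CDC26, which sits in the same role group, differed from -0.08 to 0.18 over the 4 comparisons.

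Among the cyclins, CCNB1, which with CDK1 triggers mitosis, differed most. Its ipsilateral ICAR signals were 1.28, 1.04, 0.74 and 0.80 in RB and 1.16, -0.80, -2.10 and -0.15 in non-RB cows. The RB arrays were all high, and non-RB replicate 1 was as high as they were. The difference was 1.44 (interval 0.14 to 2.74; exact permutation test, p = 0.114; limma, p = 0.0337 and adjusted p = 0.863). It was 0.90 without non-RB replicate 3 and 2.49 with the slide as a block. On slides 6 and 8, with 1 array of each status, it was 2.90 and 2.08. The non-RB array of slide 6 is replicate 3, the lowest. By scan session it was -0.27 in session 2 (2 RB arrays and 1 non-RB), 1.92 in session 3 (1 and 2) and 2.08 in session 4 (1 and 1). In the other compartments CCNB1 differed by 0.09, 0.28 and -0.28 in ipsilateral CAR, contralateral CAR and contralateral ICAR, with every pair of groups overlapping. Both contralateral values turned when RB replicate 3 was left out, to -0.31 in CAR and 0.53 in ICAR. That in CAR also turned without non-RB replicate 3 or 4 (-0.10 and -0.01), and that in ICAR without non-RB replicate 1 (0.06). Along with it in ipsilateral ICAR, 3 of 3 glandular epithelium markers were higher in RB cows with 0 called, their mean signal running from -2.70 to -0.62 in RB and from -3.76 to -1.34 in non-RB cows. All 3 were well above background on every array, and their part in the result was not tested.

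**Figure D3:**
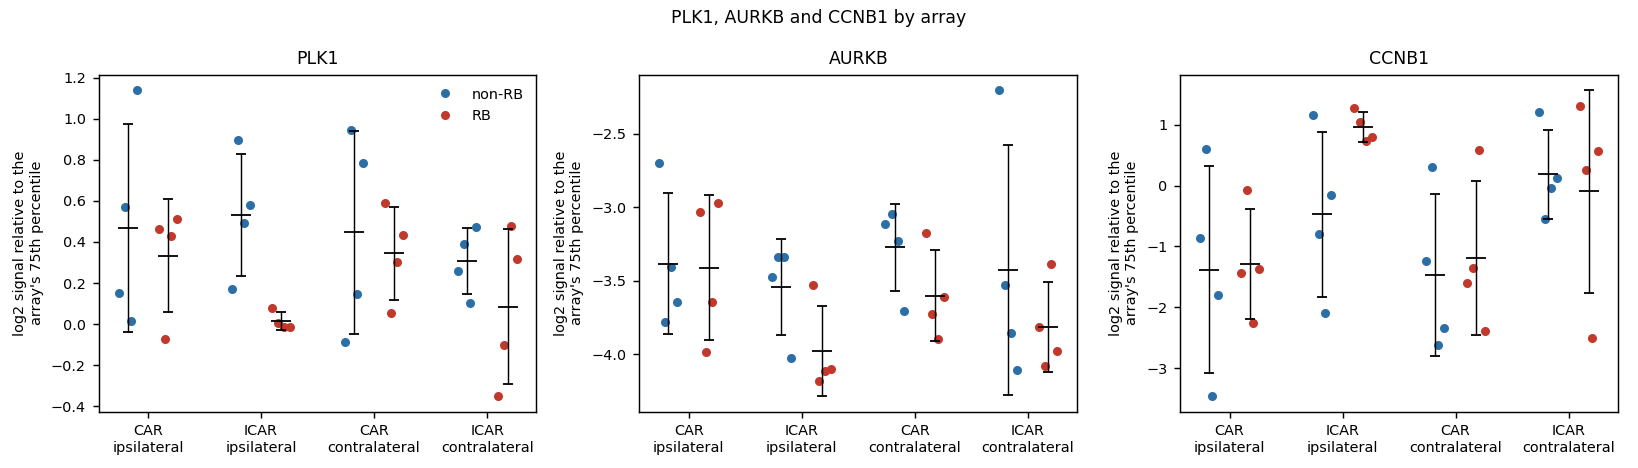
Signal of PLK1, AURKB and CCNB1 on each array (points; vertical axes, log2 scaled to each array's 75th percentile, 1 axis per probe) in non-RB (blue) and RB (red) cows, with mean and SD of 4 arrays. In ipsilateral ICAR the PLK1 arrays of RB cows lie below all non-RB arrays, and the CCNB1 arrays of RB cows lie between 0.74 and 1.28.

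The other cyclins passed no test. CCNB2 (cyclin B2) differed by -0.18 to 0.05 over the 4 comparisons, and CCNE2 (cyclin E2) by -0.37 to 0.24. Without RB replicate 3, CCNB2 was 0.08 in contralateral CAR and -0.29 in contralateral ICAR, and CCNE2 0.09 and -0.13, where they had been -0.02, -0.14, -0.20 and 0.24. CCND3 (cyclin D3) differed by 0.24, 0.34, 0.47 and -0.30 in ipsilateral CAR, ipsilateral ICAR, contralateral CAR and contralateral ICAR, with exact permutation p-values of 0.0857 or more. In contralateral CAR it was 0.22 without RB replicate 3. In contralateral ICAR it was -0.04 without RB replicate 3, and it turned to 0.17 without non-RB replicate 1, the array of slide 1 that read 4.31 beside 2.37 to 2.48 in the other non-RB cows. CDKN3 was too near background in ICAR for its differences to be read there, with 1 of 4 RB and 3 of 4 non-RB arrays well above it in the ipsilateral and 3 of 4 and 2 of 4 in the contralateral horn. In CAR, where 15 of 16 arrays measured it, it differed by 0.05 in the ipsilateral and 0.01 in the contralateral horn (0.26 without RB replicate 3).

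In the replication group, MCM5 was -1.19, -1.02, -0.75 and -1.18 in RB and -2.09, -1.31, -1.51 and -1.44 in non-RB cows in contralateral ICAR. All RB arrays lay above all non-RB arrays there. The difference of 0.55 (interval -0.0025 to 1.11; exact permutation test, p = 0.0286; limma, p = 0.0508 and adjusted p = 0.9998) stood beside 0.05, 0.09 and 0.05 in the other 3 comparisons. It was 0.22 with the slide as a block, 0.38 without non-RB replicate 1 and 0.46 without RB replicate 3. MCM6 was 0.44 higher in RB cows in ipsilateral CAR (exact permutation test, p = 0.257) and 0.43 higher in contralateral CAR (exact permutation test, p = 0.171), and 0.10 and 0.01 higher in ICAR of the ipsilateral and contralateral horns. Without RB replicate 3 it was 0.58 in contralateral CAR and -0.18 in contralateral ICAR. CDC45L differed by -0.60, -0.48, -0.30 and 0.37 in the order ipsilateral CAR, ipsilateral ICAR, contralateral CAR and contralateral ICAR. The contralateral values were 0.20 and 0.36 without RB replicate 3. It was well above background on 14 of 16 CAR arrays and 11 of 16 ICAR arrays. In ICAR only 2 of 4 ipsilateral RB arrays and 2 of 4 contralateral non-RB arrays reached it, too few for its differences to be read there.

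Over the whole uterus, with the 4 arrays of each number averaged, 0 of 29 genes were called, against 0% of probes, and 0 of the 28 other than FAM83D had an unadjusted limma p under 0.05, against 2.23% of probes (0.806% lower in RB cows, 1.43% higher). FAM83D was left out of the latter count, since the means hold the arrays from which it was picked. Apart from FAM83D the differences ran between -0.30 (AURKB) and 0.38 (CCNB1). CDK2 was 0.19 higher, MCM6 0.24 higher, CDC10 0.26 higher and PLK1 0.24 lower in RB cows, none of them past the test (limma p from 0.237 to 0.335 with AURKB).

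Between CAR and ICAR no gene passed the adjustment on all arrays. The mean of CCNB1 was 1.48 lower in CAR (CAR minus ICAR, -1.48), and the genes that passed under other settings were cyclins and CDKN3. Over the 32 arrays, 0 of 29 genes passed the adjustment, against 1.35% of 12919 probes (0.387% higher in CAR, 0.96% lower). At an unadjusted limma p under 0.05 there were 8 genes, against 16.2% of probes: 4 were higher in CAR (8.69% of probes) and 4 lower (7.55%). The 8 comprise all 4 S and M cyclins, CCND3, CDKN3, CDC26 and CDK5R1. With the contralateral arrays of RB replicate 3 left out, which go against their labels, 5 genes passed, against 9.97% of 12879 probes: CCNB2, CCNE2 and CDKN3 were higher in CAR (5.02% of probes) and CCNB1 and CCND3 lower (4.95%). These 2 arrays were left out because they oppose this very difference, so the larger count is a description. The same holds for every difference, interval, call and adjusted p given below without these 2 arrays. Leaving out all 4 arrays of RB replicate 3 removes the same 2 arrays, and the same 3 and 2 genes passed, against 7.03% of probes. Of the 8 fits that each left out 1 replicate, 6 called 0 of these genes, and 0% of all probes passed in each of those 6.

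CCNB1 was the cyclin that differed most. Its median was -1.41 on the 16 CAR arrays (range -3.47 to 0.61) and 0.41 on the 16 ICAR arrays (range -2.50 to 1.32). The means were -1.33 ± 1.20 and 0.15 ± 1.16 (SD), a difference of -1.48 (interval -2.30 to -0.66; limma, adjusted p = 0.0528). With both arrays kept, CCNB1 passed with the slide as a block (-1.45, adjusted p = 0.0434) and with the scan session as a block (-1.55, adjusted p = 0.0270), where 1.94% and 4.11% of probes passed. All these fits between CAR and ICAR treat arrays of the same number as independent. With the number as a block CCNB1 passed (limma, adjusted p = 0.0184), where 8.41% of probes passed. On means per number 0% of probes passed. It was lower in CAR in 13 of 16 pairs of the same status, horn and number, with a difference of 3.09 in the RB replicate 3 pair that went against its labels. Without those 2 arrays, and so as a description, the difference was -1.78 (interval -2.53 to -1.04 and limma, adjusted p = 0.00189). Within the 6 slides that hold both compartments it was below 0 on every slide, from -2.05 to -0.66.

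CCND3, the D cyclin with a probe, had medians of 2.22 in CAR (range 1.80 to 3.19) and 2.77 in ICAR (range 1.83 to 4.31). CAR minus ICAR was -0.47 on all arrays (limma, adjusted p = 0.120), and the gene was lower in CAR in 14 of 16 pairs. Without the 2 arrays the difference was -0.59 (adjusted p = 0.0105). Within slides it ran from -2.16 on slide 1 to 0.02 on slide 2, which holds the pair in question.

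CCNB2 had medians of -4.85 in CAR (range -5.46 to -3.44) and -5.25 in ICAR (range -5.58 to -4.60), and was higher in CAR in 13 of 16 pairs. Its difference was 0.56 (interval 0.21 to 0.91; limma, adjusted p = 0.0773), and 0.61 (adjusted p = 0.0268) without the 2 arrays. It was above 0 on 5 of the 6 slides, and -0.25 on slide 1.

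CCNE2 had medians of -3.09 in CAR (range -4.42 to -2.67) and -4.03 in ICAR (range -5.05 to -2.72), and was higher in CAR in 13 of 16 pairs. The difference of 0.66 (limma, adjusted p = 0.124) became 0.81 (adjusted p = 0.0179) without the 2 arrays, and lay above 0 on every one of the 6 slides, from 0.23 to 2.13. CCNA2 (cyclin A2) was 0.38 higher in CAR (limma, adjusted p = 0.290) and did not pass without the 2 arrays either (0.45, adjusted p = 0.129).

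CDKN3 was near background. It was well above background on 15 of 16 CAR arrays and 9 of 16 ICAR arrays, with medians of -6.88 and -7.42. The difference was 0.65 on all arrays (limma, adjusted p = 0.0910) and 0.76 (adjusted p = 0.0166) without the 2 arrays, and lay above 0 on all 6 slides, from 0.24 to 0.92. With all arrays kept it passed with the slide (0.67, adjusted p = 0.0414) or the scan session (0.64, adjusted p = 0.0308) as a block. With normexp background correction it was 0.09.

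**Figure D4:**
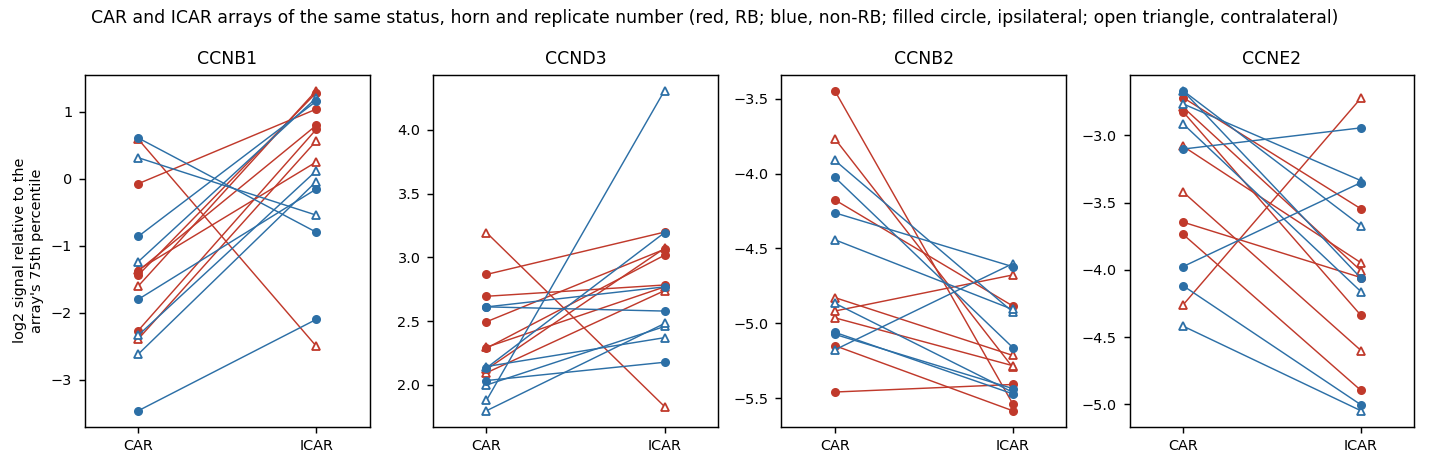
Signal of 4 cyclins in CAR and ICAR (vertical axes, log2 scaled to each array's 75th percentile, 1 axis per probe). A line joins the arrays of the same status, horn and replicate number, red for RB and blue for non-RB, filled circles for the ipsilateral and open triangles for the contralateral horn. CCNB1 is lower in CAR in 13 of 16 pairs and CCNE2 higher in CAR in 13 of 16, and the red contralateral line that runs steeply the other way in CCNB1, CCND3 and CCNE2 is RB replicate 3.

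The 4 replication genes tested (CDC45L, MCM5, MCM6 and MCM7) were 0.12 to 0.17 higher in CAR, none past the test (limma, adjusted p of 0.676 or more), and MCM6 went to -0.02 on non-RB arrays alone. AURKB was 0.27, PLK1 0.16 and FAM83D 0.15 higher in CAR, with limma's adjusted p of 0.397 or more. CDC2 differed by -0.02 and CDK2 by 0.23 (limma, adjusted p = 0.346). CDC26 differed by -0.21 (adjusted p = 0.246) and CDK5R1 by -0.29 (adjusted p = 0.260). Over the 29 genes the median difference was 0.14, beside 0.02 over all probes, and 20 were higher in CAR, or 0.17 and also 20 without the 2 arrays.

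**Figure D5:**
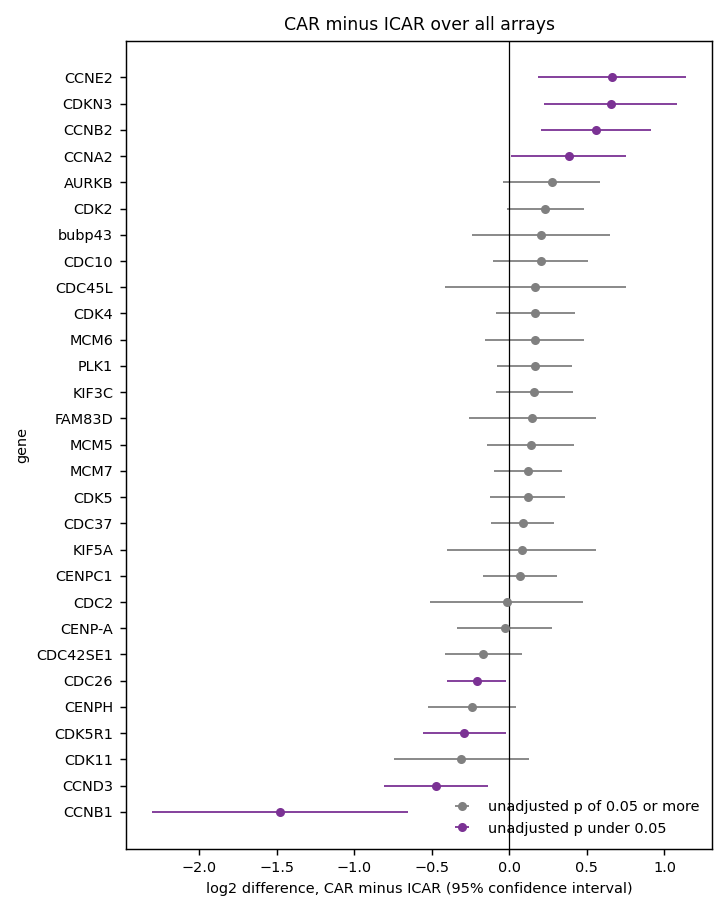
Difference of the log2 signal, CAR minus ICAR over 32 arrays (horizontal axis; points with 95% confidence intervals from limma), for the 29 genes that passed the background filter, in order of the difference. Purple marks an unadjusted p under 0.05. CCNB1 at -1.48 stands apart from the rest, which lie between -0.47 and 0.66.

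Some cell type markers differed between the compartments. Of 2 ciliated cell markers both were called lower in CAR (RSPH1 by -1.82, adjusted p = 0.0361; DNAI1 by -1.19, adjusted p = 0.0466), neither well above background on every array, their mean signal being -8.22 to -4.61 in CAR and -7.59 to -3.55 in ICAR. Of 7 epithelial markers all were lower in CAR and 0 were called (2 without the 2 arrays), with ranges of -0.59 to 1.38 and -0.78 to 1.56. Of 6 stromal markers all were higher in CAR and 0 were called (1 without the 2 arrays), with ranges of 0.35 to 1.35 and -0.31 to 1.27. Of 3 glandular epithelium markers, BPIFB1 was called lower in CAR (-2.11, adjusted p = 0.0353) while SPP1 and SERPINA14 differed by 0.21 and 0.07 and were not called, and the mean of the 3 was -4.25 to -1.02 in CAR and -3.76 to -0.62 in ICAR. All epithelial, glandular and stromal markers were well above background on every array. The part of these cells in the cyclin differences was not tested.

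The horns and the interactions gave no call. Between ipsilateral and contralateral horns 0 of 29 genes were called (0% of probes), 0 had an unadjusted p under 0.05 by limma (1.36% of probes, 0.875% higher and 0.488% lower in the ipsilateral horn), and the differences ran from -0.28 (bubp43) to 0.38 (CDC45L). The RB effect did not pass a test of difference between CAR and ICAR, or between horns, for any of the 29 genes fitted (0 called and 0 at an unadjusted limma p under 0.05, against 0.9% and 6% of probes at the latter, by direction 0.589% and 0.31% for compartments and 1.83% and 4.17% for horns). For FAM83D the RB effect was 0.07 higher in CAR than in ICAR and -0.29 in the ipsilateral less the contralateral horn, given with no test because both contrasts hold the ipsilateral arrays from which the gene was picked. For CCNB1 the RB effect was 0.76 higher in the ipsilateral horn (exact permutation test, p = 0.114; limma, adjusted p = 0.792).

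Over the 32 arrays, as deviations from the group means, the median correlation between 14 proliferation genes was -0.01 over 91 pairs, with 2 pairs over 0.5 and 3 under -0.5. CCNB1 ran against CCNE2 (r = -0.70) and CCNA2 (r = -0.70) and with CCND3 (r = 0.67), while CCNA2 and CCNE2 ran together (r = 0.63). The points share arrays, slides and cows, the deviations of RB replicate 3 among them, and the correlations are descriptions.

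Cell cycle genes outside the naming rule were taken from a separate list, of which 23 genes with 24 probes were tested in at least 1 comparison. In each comparison of RB with non-RB cows 0 of the 23 or 24 probes tested were called. Between CAR and ICAR 0 of 23 were called on all arrays, with 2 higher in CAR at an unadjusted limma p under 0.05 and 3 lower, against 8.69% and 7.55% of all probes. STMN1 (stathmin, which destabilises microtubules) was 0.59 higher (limma, adjusted p = 0.136). GMNN (geminin, which blocks relicensing of origins) differed by -0.44 (adjusted p = 0.0730). Both probes of CDCA7, a gene induced in S phase, differed by -0.58 (adjusted p = 0.0959 and 0.111). Without the 2 arrays against their labels, STMN1 was called higher and GMNN and both CDCA7 probes lower, 4 of 23 probes against 9.97% of all probes.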

How the data were processed

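The authors deposited Agilent Feature Extraction 9.5 scanner files, whose processed intensity had its background subtracted, from single-colour Cy3 arrays, and a table of log2 values that equals the log2 intensity scaled to each array's 75th percentile plus a constant of 0.00420 to 0.0140. Here, the log2 processed intensity was used after subtraction of each array's 75th percentile. Control spots were left out and outlier spots set to missing. Probes that 2 of 8 (or 8 of 32) arrays or more measured well above background, with 3 or more values per group, were tested with limma 3.58.1 in R 4.3.3, with Benjamini-Hochberg adjustment over all probes and calls at an adjusted p under 0.05. The script was tested on simulated data. Groups came from the labels, and a shared number was taken to mark a cow. RB and non-RB arrays were compared per compartment, the whole uterus on means over 4 arrays, CAR and ICAR and the horns on 32 arrays with status and the other factor as terms, and interactions on differences per number. Exact permutation tests were two-sided.

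The replicates are separate cows, and precision is limited by how few arrays there are. The 32 genes, the lists and the named genes were chosen with earlier results of these data known. Where no gene was called, the 3 with the smallest p in each direction were put among the named genes, with a fixed set of core genes. Not all of their differences are printed. A reference gene table held 15 of the 32 accessions. CDC7, CDK2AP2, AURKA, CDK10 and CENPL were named by that table alone and were not members. A probe that it names PTTG1 is described on the array as similar to PCGF2 and was not a member either. Alternatives were no filter, a filter on all arrays, quantile normalization, normexp with an offset of 50, the deposited table, averaged probes of 1 sequence, slide, scan session (arrays scanned in the same month) or number as a block, a single fit, the methods' t-test and the removal of each replicate. The removal of slide 1 and of the contralateral arrays of RB replicate 3 was chosen after seeing the data.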

Additional observations from a re-analysis of the deposited data

Results flagged for a closer look

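Of 208 groups of 4 arrays looked at for 26 named genes, 15 values lay far from the other 3 of their group, where chance flags about 1 in 20 groups, or 10.4. All 15 were well above background, and none was explained here.

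In the contralateral horn, non-RB replicate 1 stood apart in ICAR for CCND3 (4.31, against 2.37 to 2.48 in the others), CENPH (-0.22, against -1.51 to -1.32), MCM6 (-1.59, against -2.66 to -2.50) and bubp43 (-4.35, against -2.79 to -2.55). That array lay on slide 1. CDC45L in CAR of non-RB replicate 2, the other array of that slide, was -5.43, against -7.28 to -6.99. Non-RB replicate 1 also stood low in CAR for CCNE2 (-4.42, against -2.91 to -2.67). RB replicate 1 was high in CAR for CCNB2 (-3.77, against -4.96 to -4.83), RB replicate 3 high in ICAR for CCNB2 (-4.68, against -5.29 to -5.21), and RB replicate 4 high in ICAR for KIF5A (-6.24, against -7.62 to -7.38).

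In the ipsilateral horn, RB replicate 1 was high in ICAR for AURKB (-3.53, against -4.18 to -4.10). In CAR, RB replicate 4 was low for CDC26 (0.51, against 1.09 to 1.19), RB replicate 2 low for PLK1 (-0.073, against 0.43 to 0.51) and RB replicate 3 high for bubp43 (-1.84, against -2.98 to -2.87). Non-RB replicate 4 was low in CAR for CDK2 (-1.16, against -0.38 to -0.31) and for bubp43 (-4.70, against -2.66 to -2.24).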

How the results depend on the processing

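In the comparisons of RB with non-RB cows, of the horns and of the RB effect between compartments and horns, the number of cell cycle genes called was 0 under each alternative run, and leaving out single replicates gave 0 to 0. The methods' t-test gave 0, 2, 1 and 1 genes under its threshold in ipsilateral CAR, ipsilateral ICAR, contralateral CAR and contralateral ICAR and 1 in the whole uterus, and 0 in each after Benjamini-Hochberg adjustment. Of all probes, 163 higher and 299 lower of 13080 in ipsilateral CAR lay under that threshold. In ipsilateral ICAR these were 196 and 261 of 12889. The numbers over all probes are not printed for contralateral CAR, contralateral ICAR and the whole uterus. The count of 1 gene in each of those therefore cannot be set against a share of probes, and nothing is read from it. FAM83D was among the genes of ipsilateral ICAR and was the gene of the whole uterus. Both hold the arrays from which it was picked, so its counts there are descriptions. Between CAR and ICAR, 0 genes were called in each direction on all arrays. The counts were 1 higher and 1 lower with the slide as a block (CDKN3 and CCNB1), 1 and 1 with the session of scanning as a block (CDKN3 and CCNB1 again), and 3 and 2 without the contralateral arrays of RB replicate 3. Leaving out single replicates gave 0 to 3 higher and 0 to 2 lower. Without non-RB replicate 2 there were 2 and 1, against 5.54% of all probes called, and without RB replicate 3 there were 3 and 2, against 7.03%.

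The replicate number as a block gave 3 genes higher in CAR (CCNB2, CCNE2 and CDKN3) and 1 lower (CCNB1), against 8.41% of all probes called in that fit, and changed no other call. With the means per number in a blocked fit there were 0 and 0, and 0% of probes. Arrays of the same status and number had a mean correlation of deviations of 0.41, over 0.1 in 41 of 48 pairs, and RB and non-RB arrays of the same number 0.15, over 0.1 in 11 of 16.

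Differences that changed sign were all uncalled, and the cause was not tested. With single replicates left out, RB minus non-RB changed sign at least once for 14 of 30 genes in ipsilateral CAR, 12 of 29 in ipsilateral ICAR, 23 of 31 in contralateral CAR and 18 of 30 in contralateral ICAR. Without RB replicate 3, CCNB1 turned to -0.31 and 0.53 in contralateral CAR and ICAR, and without non-RB replicate 1 CCND3 turned to 0.17 in contralateral ICAR. CENP-N in contralateral CAR, well above background on 1 of 4 arrays of each group and so mostly a background value, was -0.65 and became 0.094 with normexp, 0.98 with the slide and 0.34 with the session as a block. In contralateral ICAR, with the slide and the session as a block, CDC10 became -0.19 and -0.18 (-0.036 with normexp), CENPH 0.082 and 0.10, FAM83D 0.64 and 0.44, and KIF5A 0.11 and 0.079. Leaving out single replicates took CCNA2 in contralateral CAR from -0.032 to 0.40 and AURKB in contralateral ICAR from -0.62 to 0.018. For CAR minus ICAR, CDC2 became 0.15 on non-RB arrays alone, 0.011 in the ipsilateral horn and 0.024 without slide 1, with -0.14 to 0.057 when single replicates were left out, and MCM6 became -0.024 on non-RB arrays alone and -0.011 in the contralateral horn. CDC45L became -0.044 between horns in CAR alone and 0.35 for the RB effect in CAR against ICAR with normexp, and CDKN3 0.050 for the RB effect between horns with normexp.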

Other observations

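For 6 probes the reference gene table alone gave a name that fits the rule. The probe it names PTTG1 is described on the array as similar to PCGF2, a conflict not resolved here, and was left out. The other 5 were AURKA (aurora kinase A, which matures spindle poles), CDC7 (the kinase that fires origins), CDK10, CDK2AP2 and CENPL. Of these, 0 of 5 were called by limma in any of the comparisons. CDC7 was 0.58 higher in CAR than in ICAR (limma, adjusted p = 0.233), and AURKA 0.18 higher (limma, adjusted p = 0.577). CENPL was higher in every RB array than in every non-RB array of contralateral CAR, by 0.43 (two-sided exact permutation test, p = 0.0286, the smallest that 4 against 4 allows, and limma, adjusted p = 0.9998). Groups did not overlap for 1.37% of all probes there, and 0 of the 5 probes had an unadjusted limma p under 0.05.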
